A study of Mus musculus with 20 samples.

Results

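The genes described here are those detected across the passage from diplotene of meiotic prophase to meiosis II in mouse spermatocytes labelled Cxxc1-null. They were chosen as every gene with at least 1 FPKM (fragment numbers corrected for gene length and library size) in at least 2 of 4 RNA libraries, namely Cxxc1-null diplotene replicates 1 and 2 and Cxxc1-null meiosis II replicates 1 and 2. This gave 11762 of the 23235 genes in the table. The rule uses no difference between stages. Next to its threshold, the second highest of the 4 values was 1 FPKM for Gm16157, 1700071K01Rik and Sos2, which were kept, and 0.999 FPKM for Akr1b7, Hfe and Miat, which were not.

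The study compared wild-type (WT) and Cxxc1-null spermatocytes of adult male mice on a C57BL/6J background in pachytene, diplotene and meiosis II, with 12 RNA libraries in 6 groups of 2. Every library was made from 500 cells sorted by flow cytometry, by Smart-seq2, which copies whole poly(A) transcripts into cDNA. The 4 libraries at issue carry the Cxxc1-null genotype at both stages, and the 4 WT libraries of the same stages serve as the reference for what is shared. The sources used here do not give the promoter that drove the deletion, the part of Cxxc1 removed, or whether libraries of a group stem from different mice. P-values and errors therefore measure only the spread between the 2 libraries of a group, which may be technical. That spread was pooled over all 6 groups and drawn towards a trend across genes, so it is not the spread of the 4 libraries alone.

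The Cxxc1 protein binds CpG dinucleotides and guides the SETD1 complexes, which trimethylate lysine 4 of histone H3 at promoters. In male meiosis, homologous chromosomes pair along the synaptonemal complex and repair programmed breaks during prophase, then separate in meiosis I. Sister chromatids separate in meiosis II to give round spermatids. The X and Y chromosomes are silenced in the sex body during pachytene and diplotene, and a subset of their genes is transcribed again after the divisions.

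Of the 11762 genes, 3073 were higher and 2401 lower in meiosis II than in diplotene of Cxxc1-null cells (limma on log2(FPKM + 1), Benjamini-Hochberg adjusted p under 0.05 over all 12956 genes tested in the series). The shares called among all tested genes were 25.3% for higher, 18.8% for lower and 44.1% in either direction. The remaining 6288 genes were not called, and for 4821 of them the log2 difference between stages was under 0.5 in size. In every called gene both libraries of 1 stage lay above both of the other, while over all 11762 genes both meiosis II libraries were above both diplotene libraries in 4408 (37.4% of all tested) and below them in 4337 (36%). Large differences were mostly increases: on the log2(FPKM + 1) scale, used for all fold changes here, 1087 genes rose at least 4-fold (8.39% of all tested) and 251 fell at least 4-fold (1.94%), and at 8-fold or more the numbers were 329 (2.54%) and 38 (0.293%). At an unadjusted p under 0.05 in limma 6214 genes differed (50.6% of all tested). Fewer genes were called when a library was left out, down to 1520 lower without meiosis II replicate 2 and 1538 without diplotene replicate 1. The median log2 difference was -0.02, with quartiles of -0.58 and 0.75 and a median standard error of 0.27. Setting all libraries to a common median moved the median log2 difference to -0.13, with 2823 genes higher and 2810 lower, and quantile normalization gave 2743 higher and 3108 lower. Differences of that size, and which direction holds more genes, thus depend on the scaling. The counts of the lists below stand against the 25.3% higher and 18.8% lower among all tested genes.

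Counts of increases depend on how genes were admitted. Of the 1097 genes that passed the threshold through both meiosis II libraries and neither diplotene library, 1004 were called higher, as they had to be high in that stage to enter. The converse held for 282 of the 370 genes admitted through diplotene alone. In the lists below, a gene under 1 FPKM in both libraries of a stage likewise entered through the other stage, so its direction was fixed. Among the 9231 genes at 1 FPKM or more in all 4 libraries, 1583 were higher and 1987 lower. Genes with names of uncharacterised transcripts made up 1935 of the genes, of which 763 were higher and 304 lower. 1700011M02Rik, an X-linked transcript admitted through meiosis II alone, read 0.61 and 0.651 FPKM in diplotene and 23.8 and 38.1 FPKM in meiosis II. The largest decrease of this kind was in 4930525D18Rik, from 154 and 149 to 3.8 and 5.56 FPKM.

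**Figure D1:**
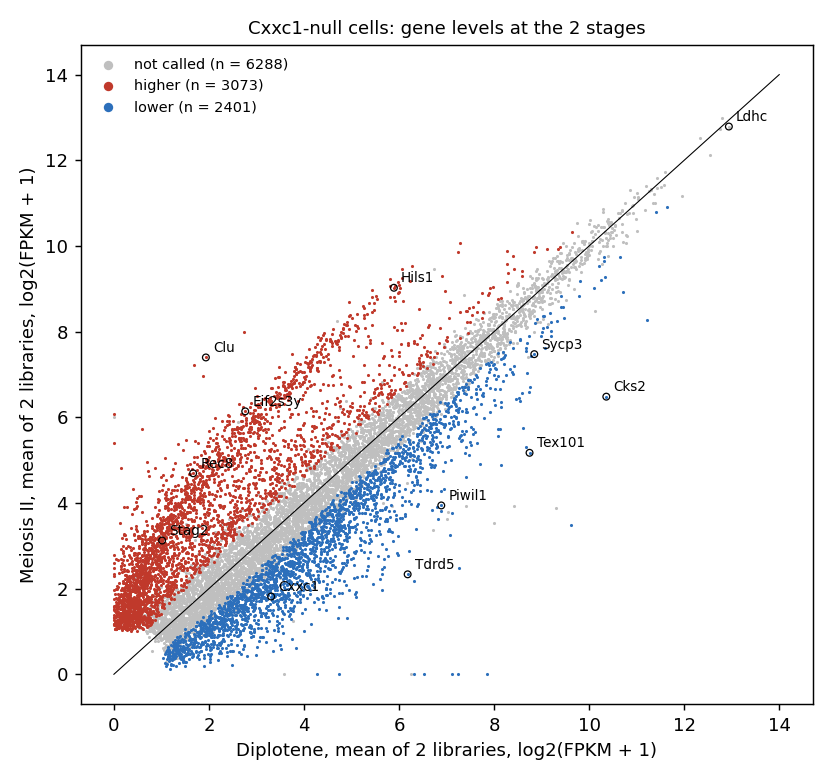
Levels of the 11762 genes in Cxxc1-null cells, as the mean of log2(FPKM + 1) over 2 libraries, in diplotene (horizontal axis) and meiosis II (vertical axis). Each point is a gene, the line marks equal levels, and colours mark the limma call: 3073 genes lie above it in red and 2401 below it in blue, and the strongly raised genes form a narrow band parallel to the line.

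The 2 diplotene libraries were not alike. Replicate 2 correlated with the meiosis II libraries at r = 0.898 and 0.884 across the tested genes, against 0.858 and 0.821 for replicate 1. Summed FPKM of 14 late spermatid markers (protamine, transition protein and sperm-tail genes) was 205 in diplotene replicate 1 and 1153 in replicate 2, against 2672 and 6220 in meiosis II. In these sorted pools more cells of a type and more RNA per cell cannot be told apart. In 998 of the 1087 genes that rose at least 4-fold replicate 2 was the higher diplotene library, with a median log2 gap of 1.08, compared with 1409 of 1986 genes that rose less, and 6760 of all 11762 genes with a median gap of 0.07. Several of the largest increases and the markers of Sertoli cells went the other way, the latter with replicate 2 below replicate 1 in 9 of 9. The part of these gaps in the results was not tested beyond leaving libraries out. Between 10149 and 11529 genes reached 1 FPKM in each of the 4 libraries. Sequencing depth is unknown, because the sources used here give no fragment numbers.

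Cxxc1 itself read 9.57 and 8.29 FPKM in diplotene and 3.10 and 2.02 FPKM in meiosis II of the cells labelled Cxxc1-null. Both meiosis II values lay below both diplotene values, and since the deleted part is not known these levels do not check the labels. The log2 fold change was -1.49 ± 0.25 (SE, limma adjusted p = 0.0011), and -1.59 without diplotene replicate 2. In WT cells Cxxc1 read 13.7 and 17.6 FPKM in diplotene and 12.5 and 12.8 FPKM in meiosis II, a log2 change of -0.27. These changes differed by -1.22, which did not pass the test (limma adjusted p = 0.35).

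CpG, the dinucleotide that the CXXC domain recognises, was counted in promoters. Shown here, because they span the range from none to many, are the 250 bases before the start site of 2 spermatid genes that rose at least 4-fold (Hils1 and Tnp1), of the raised X-linked gene Cul4b, and of 2 strongly lowered genes (Tdrd5 and Cks2), 5′ to 3′ on the gene's strand with each CpG in capitals. The letters are from RefSeq, build GRCm38.p6, whereas the expression values were made on mm9. Hils1 lies at chr11:94967343-94967592 on the plus strand and Tnp1 at chr1:73015900-73016149 on the minus strand. Cul4b lies at chrX:38576197-38576446 on the minus strand, Tdrd5 at chr1:156303349-156303598 on the minus strand and Cks2 at chr13:51644982-51645231 on the plus strand.
Hils1: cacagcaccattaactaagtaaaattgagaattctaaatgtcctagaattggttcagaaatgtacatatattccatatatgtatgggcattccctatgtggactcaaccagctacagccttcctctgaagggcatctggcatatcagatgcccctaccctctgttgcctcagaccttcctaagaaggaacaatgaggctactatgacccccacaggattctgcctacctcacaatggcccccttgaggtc
Tnp1: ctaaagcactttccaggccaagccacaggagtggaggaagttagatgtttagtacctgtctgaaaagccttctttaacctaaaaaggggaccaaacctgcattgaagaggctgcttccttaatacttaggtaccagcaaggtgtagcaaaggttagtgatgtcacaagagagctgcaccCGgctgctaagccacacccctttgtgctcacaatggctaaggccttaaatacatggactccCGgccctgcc
Cul4b: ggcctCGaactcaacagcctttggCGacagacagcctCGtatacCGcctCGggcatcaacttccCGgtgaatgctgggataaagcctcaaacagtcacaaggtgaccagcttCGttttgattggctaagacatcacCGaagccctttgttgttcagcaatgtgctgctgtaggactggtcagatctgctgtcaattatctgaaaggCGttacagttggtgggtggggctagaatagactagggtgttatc
Tdrd5: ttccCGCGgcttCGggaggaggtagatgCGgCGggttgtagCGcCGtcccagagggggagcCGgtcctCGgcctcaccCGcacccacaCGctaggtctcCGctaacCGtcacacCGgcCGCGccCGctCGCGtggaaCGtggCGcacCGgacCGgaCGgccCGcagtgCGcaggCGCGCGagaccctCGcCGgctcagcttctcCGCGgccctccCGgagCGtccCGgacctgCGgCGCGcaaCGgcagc
Cks2: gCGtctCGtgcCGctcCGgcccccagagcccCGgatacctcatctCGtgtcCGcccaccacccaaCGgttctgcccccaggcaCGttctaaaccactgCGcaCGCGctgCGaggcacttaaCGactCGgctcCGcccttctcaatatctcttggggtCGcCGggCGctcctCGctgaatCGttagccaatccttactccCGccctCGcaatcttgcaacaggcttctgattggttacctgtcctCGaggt
The windows hold 0 CpG in Hils1, 2 in Tnp1, 9 in Cul4b, 40 in Tdrd5 and 24 in Cks2.

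The 12 genes with the largest increases were led by transcripts known from somatic cells of the testis and by secreted proteins. Clu, which encodes the secreted chaperone clusterin, read 5.71 and 1.18 FPKM in diplotene and 169 and 166 FPKM in meiosis II, a log2 fold change of 5.46 ± 0.54 (SE; limma adjusted p = 7.1e-05). The cystatin gene Cst12 went from 4.04 and 1.03 to 125 and 173 FPKM (5.54 ± 0.56), and its relative Cst9 from 5.6 and 1.02 to 95.4 and 160 FPKM (5.09 ± 0.55). In all 3 genes diplotene replicate 2 was the lowest library. Without diplotene replicate 1 and without replicate 2 in turn, the log2 change was 6.27 and 4.65 for Clu, 6.19 and 4.88 for Cst12, and 5.95 and 4.24 for Cst9.

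The beta-defensin gene Defb19 read 9.35 and 3.33 FPKM in diplotene and 226 and 281 FPKM in meiosis II (log2 fold change 5.24 ± 0.40, or 5.87 and 4.61 without diplotene replicate 1 and without replicate 2). Wfdc10, of the whey acidic protein family, was at 1.29 and 0 FPKM and then at 47.2 and 56.4 FPKM (log2 fold change 5.12, or 5.72 and 4.52 without those libraries in turn). Sparc, a matricellular protein gene, went from 1.07 and 0.302 to 24.4 and 27.5 FPKM (4.03 ± 0.38). The others were Defb36, Ldhb (the heart-type lactate dehydrogenase subunit), the glutathione transferase genes Gstm2 and Gsta4, and the X-linked Etd and Ssxb1, with log2 fold changes from 3.94 to 4.67. Etd and Gsta4 passed the threshold through meiosis II alone, so their rise was fixed by admission.

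These increases went with markers of Sertoli cells, the somatic nurse cells of the tubule. All 9 Sertoli markers among the genes were higher in meiosis II, with a median log2 fold change of 3.42 (8 of 9 without diplotene replicate 2 or without meiosis II replicate 1), and 0 of the 14 listed markers in the table were at 0 in all 4 libraries. The summed level of the 14 was 15.1 and 6.96 FPKM in diplotene and 303 and 288 FPKM in meiosis II. Ctsl rose from 2.91 and 1.71 to 42.0 and 43.6 FPKM and Cldn11, a tight junction gene, from 0.789 and 0.0843 to 19.7 and 13.5 FPKM. Cldn11, Aard and Amhr2 were among the markers that passed the threshold through meiosis II alone, so their rise was fixed by admission. Clu, Ctsl and Inha read at least 1 FPKM in both diplotene libraries and also rose. The transcription factor genes Sox9 and Wt1, which define the lineage and are named here after their values were seen, rose by log2 1.30 and 1.37. The sums in WT cells were 11.3 and 9.22 FPKM in diplotene and 423 and 310 FPKM in meiosis II. The part of somatic RNA in any other increase was not tested.

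Of 4 Leydig markers, Insl3, Cyp11a1 and Hsd3b6 rose and Star fell. Insl3, a peptide hormone of Leydig cells, read 10.1 and 20.7 FPKM in diplotene and 95.5 and 180 FPKM in meiosis II, while Star fell from 1.32 and 1.26 to 0.622 and 0.567 FPKM. Of these calls, those of Hsd3b6, Star and Insl3 depended on the libraries used. Hsd3b6 and Star were called in no fit that left out 1 of the 4 libraries. Insl3 was not called without diplotene replicate 1 (log2 fold change 2.6) or meiosis II replicate 2 (2.63). Among 4 peritubular, endothelial and blood markers only the macrophage gene Emr1 was called, from 0.303 and 0.509 to 2.79 and 1.84 FPKM, and the globin gene Hba-a1 was listed at 0 in all 4 libraries. Of 15 immediate early and stress genes, 8 were higher and 2 lower (4 and 1 without diplotene replicate 1 or without meiosis II replicate 1, 5 and 1 without diplotene replicate 2). Gadd45g went from 0.0752 and 0.0802 to 4.29 and 4.01 FPKM. Gadd45g, Egr1, Ier2, Junb and Jund passed the threshold through meiosis II alone, so their rise was fixed by admission. The same holds for Cyp11a1, Hsd3b6 and Emr1, while Star was admitted through diplotene alone and so had to fall.

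Of 14 genes of the synaptonemal complex and chromosome axis, 8 fell and 0 rose in limma, with a median log2 fold change of -0.93; without diplotene replicate 1, 4 fell. Sycp3, an axis protein gene, fell from 477 and 442 to 167 and 187 FPKM (log2 fold change -1.37 ± 0.37, limma adjusted p = 0.013). Sycp2, its partner in the axis, fell from 118 and 88.2 to 31.3 and 26.4 FPKM. The central element gene Tex12 fell from 65.7 and 55.8 to 8.42 and 14.5 FPKM (-2.35 ± 0.48), and Hormad1, which marks unsynapsed axes, from 227 and 145 to 57.0 and 50.9 FPKM. Sycp3 was not called without diplotene replicate 1 (limma adjusted p = 0.064) or meiosis II replicate 1 (0.061), nor Hormad1 without diplotene replicate 1 (0.1) or meiosis II replicate 2 (0.075). Other genes of the structure were level: Syce1, also of the central element, read 866 and 802 FPKM in diplotene and 812 and 836 FPKM in meiosis II, and Syce3 read 194 and 284, then 176 and 335 FPKM, and neither was called.

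Of 20 genes of break formation and strand exchange, 13 fell and 0 rose (median -1.0). Ccdc36, needed for break formation, fell from 12.2 and 8.56 to 2.09 and 1.74 FPKM (log2 fold change -1.95 ± 0.29, limma adjusted p = 0.00047). Spata22 and Xrcc2, which act in strand exchange, both fell by 1.91 on the log2 scale. Psmc3ip, which also acts in strand exchange, read 543 and 619 FPKM in diplotene and 416 and 547 FPKM in meiosis II, and was not called.

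Of 10 crossover factors, 3 fell and 1 rose. Ccnb1ip1, which encodes an E3 ligase required for crossovers, fell from 9.8 and 8.68 to 0.427 and 0.49 FPKM (log2 fold change -2.81 ± 0.36), and the crossover cyclin-like gene Cntd1 from 104 and 67.0 to 42.4 and 25.7 FPKM. Without diplotene replicate 1 (limma adjusted p = 0.17) or meiosis II replicate 2 (0.18) Cntd1 was not called. The gene that rose was the X-linked Tex11, from 0.195 and 0.162 to 1.12 and 1.15 FPKM. Tex11 passed the threshold through meiosis II alone, so its rise was fixed by admission. Ccnb1ip1 was admitted through diplotene alone, so its fall was fixed as well. Slx4, a nuclease scaffold gene, had a log2 difference of 0.06 and was not called.

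Of 16 cohesin genes 4 rose and 2 fell, close to the shares of 25.3% and 18.8% over all tested genes. Rec8, which encodes the meiotic kleisin that holds sister chromatids until meiosis II, rose from 1.07 and 3.87 to 21.9 and 28.2 FPKM (log2 fold change 3.03 ± 0.42, limma adjusted p = 0.00034), with 2.41 without diplotene replicate 1 and 3.65 without replicate 2. Smc3, of the cohesin ring, rose from 3.92 and 5.46 to 23.7 and 23.5 FPKM (2.12 ± 0.23), and the X-linked Stag2 from 0.645 and 1.48 to 7.29 and 8.15 FPKM. Sgol2, the protector of centromeric cohesin, fell from 28.2 and 21.2 to 12.5 and 9.67 FPKM, a call lost without diplotene replicate 1 (limma adjusted p = 0.057) or meiosis II replicate 2 (0.052), when 0 of the 16 genes fell. The meiosis-specific Stag3 read 133 and 103 FPKM, then 131 and 73.7 FPKM, and its libraries overlapped.

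Of 34 genes of the division machinery 9 rose and 10 fell, or 6 and 9 without diplotene replicate 2 and 5 and 11 without meiosis II replicate 1. The share higher was near the 25.3% over all tested genes. Cks2, which binds cyclin-dependent kinases and is required for the first meiotic division, had the largest fall in any list, from 1323 and 1306 to 80.1 and 97.4 FPKM (log2 fold change -3.88 ± 0.35, limma adjusted p = 5.3e-05). Cdk2 fell from 65.8 and 59.2 to 9.03 and 7.7 FPKM, and the spindle checkpoint gene Mad2l1 from 29.3 and 22.7 to 3.38 and 3.83 FPKM. Ccne2, a cyclin E gene, fell by 2.28 on the log2 scale. In the other direction, and named after their values were seen, the mitotic cyclin gene Ccnb1 rose by 1.74, the phosphatase gene Cdc25c by 1.63 and the kinase gene Plk1 by 1.32. Plk1 was not called without diplotene replicate 2 (limma adjusted p = 0.084) or meiosis II replicate 1 (0.13). The list's median was -0.06, and 0.08 without meiosis II replicate 2.

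Genes of the piRNA pathway, which silences transposons and processes pachytene transcripts in spermatocytes, fell in 11 of 18 cases and rose in 0 (median -1.1). Tdrd5, a tudor domain gene, fell from 81.9 and 62.5 to 4.38 and 3.72 FPKM (log2 fold change -3.85 ± 0.24, limma adjusted p = 1.5e-05). Piwil1, the pachytene PIWI protein gene, fell from 107 and 129 to 15.5 and 13.3 FPKM (-2.95 ± 0.23). Tdrd1 fell from 55.5 and 60 to 8.06 and 7.18 FPKM and the helicase gene Mov10l1 from 30.7 and 27.7 to 5.37 and 5 FPKM. Mael, also of the pathway, read 1814 and 1527 FPKM, then 1947 and 1654 FPKM, and was not called.

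Other genes among the 12 largest decreases covered several functions. Tex101, a surface protein of germ cells, fell from 415 and 442 to 31.9 and 38.4 FPKM (log2 fold change -3.58 ± 0.21). Mllt10, a cofactor of H3K79 methylation, fell from 144 and 132 to 13.3 and 11.8 FPKM, and Dut, the dUTPase gene, from 71.6 and 75.3 to 5.38 and 7.45 FPKM. Zfp389, a zinc finger gene, went from 71.9 and 85.8 to 2.76 and 4.37 FPKM (-4.14 ± 0.37). Aym1, Ankrd10, Chst1, Fam181a, Scpep1 and C2cd4b fell by between 3.20 and 3.40 on the log2 scale. C2cd4b was admitted through diplotene alone, so its fall was fixed.

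**Figure D2:**
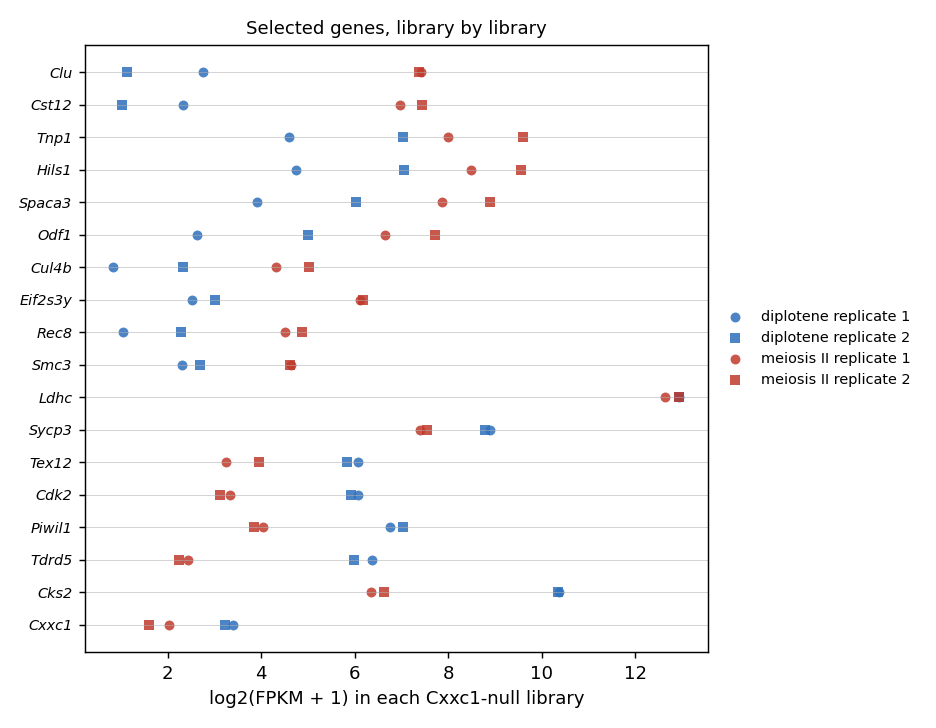
Level of 18 named genes in each Cxxc1-null library, as log2(FPKM + 1), with diplotene in blue and meiosis II in red and replicate 1 as circles and replicate 2 as squares. In Tnp1, Hils1, Spaca3 and Odf1 diplotene replicate 2 lies well above replicate 1, in Clu and Cst12 it lies below, and in Sycp3, Piwil1 and Cks2 the diplotene pair lies close together. The 2 stages are apart in every gene shown except Ldhc.

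Many genes of the spermatid rose, and others were already abundant in diplotene. Of 18 genes of protamines and spermatid chromatin, 9 rose and 3 fell (median 1.26). Without diplotene replicate 1 the counts were 5 and 1, without replicate 2 9 and 1, and without meiosis II replicate 2 4 and 4. Tnp1, which encodes a transition protein that replaces histones, read 23.1 and 130 FPKM in diplotene and 254 and 780 FPKM in meiosis II, a log2 fold change of 2.99 ± 0.74 (limma adjusted p = 0.0083). Over the 4 fits with 1 library left out it ranged from 1.77 without diplotene replicate 1 to 4.21 without replicate 2. Prm2, a protamine gene, went from 15.8 and 111 to 232 and 526 FPKM (3.01 ± 0.77, range 1.64 to 4.38). Hils1, a spermatid linker histone gene, went from 25.7 and 131 to 360 and 749 FPKM (3.13 ± 0.62, range 1.98 to 4.28), with the same libraries at the ends of each range. In each gene the stages did not overlap, and on the log2 scale diplotene replicate 2 was nearer to meiosis II replicate 1 than to diplotene replicate 1. Tnp1 and Prm2 were not called without diplotene replicate 1 (limma adjusted p = 0.065 and 0.063) or meiosis II replicate 2 (0.078 and 0.077).

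Of 28 acrosome and sperm-egg fusion genes, 15 rose and 1 fell (median 0.81). Spaca3, a sperm lysozyme-like protein gene, read 14.1 and 64.3 FPKM, then 234 and 477 FPKM, and Izumo3 read 4.48 and 18.8, then 97.9 and 146 FPKM (log2 fold changes 3.41 ± 0.60 and 3.53 ± 0.62). Without diplotene replicate 1 and without replicate 2 these were 2.36 and 4.47 for Spaca3 and 2.61 and 4.46 for Izumo3. The gene that fell was Tex101, given above. Acrbp and Crisp2, at 606 and 1393 FPKM already in diplotene replicate 1, had log2 differences of 0.44 and 0.14 and were not called.

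Of 39 flagellum and motility genes, 25 rose and 1 fell (median 1.63). The gene that fell was Dnahc8, named after its values were seen, and it was called in no fit that left out 1 of the 4 libraries (limma adjusted p 0.069 to 0.23). Odf1, of the outer dense fibres of the sperm tail, went from 5.19 and 30.8 to 98.6 and 208 FPKM (log2 fold change 3.36 ± 0.71), and Tssk4, a spermatid kinase gene, from 7.58 and 22.4 to 109 and 156 FPKM (3.21 ± 0.41). Without diplotene replicate 1 and without replicate 2 these were 2.18 and 4.54 for Odf1 and 2.49 and 3.94 for Tssk4. Meig1, required for the manchette, read 4430 and 6059 FPKM, then 4409 and 7802 FPKM, and Ropn1l, of the sperm fibrous sheath, read 2169 and 2513, then 2494 and 2892 FPKM. Neither was called.

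Of 25 regulators of the spermatid program, 10 rose and 1 fell (median 0.41). Fhl5, a coactivator of the CREM transcription factor, rose from 8.11 and 27.2 to 77.1 and 161 FPKM (log2 fold change 2.81 ± 0.55, or 1.99 and 3.63 without diplotene replicate 1 and without replicate 2), and the X-linked general transcription factor gene Taf7l from 1.64 and 3.9 to 27.4 and 27.9 FPKM (3.0 ± 0.32). Sox5 and Rfx1, both transcription factor genes, rose by 2.68 and 2.55. Rnf8, a ubiquitin ligase gene, fell from 15.1 and 14.2 to 5.03 and 3.67 FPKM. Among metabolic isozymes, 11 of 27 rose and 1 fell (7 and 0 without diplotene replicate 1). Aldoart1, a sperm aldolase gene, rose from 1.71 and 6.2 to 39.1 and 38.4 FPKM (3.17, or 2.47 and 3.88 without those libraries in turn), whereas the testis lactate dehydrogenase gene Ldhc, at 7892 and 7824 and then 6402 and 7807 FPKM, was not called.

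All 14 late spermatid markers rose, with a median log2 fold change of 2.94, and 4.23 without diplotene replicate 2. The number of calls depends on the library left out: 7 of the 14 were called without diplotene replicate 1, with a median of 1.74, and 8 without meiosis II replicate 2, with a median of 2.42. In WT the sums were 425 and 931 FPKM in diplotene and 8414 and 12237 FPKM in meiosis II, with a median change of 4.02. The Cxxc1-null median thus lay below the WT median with all libraries and above it without diplotene replicate 2, and 0 of the 14 differences between genotypes passed the test in limma.

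The larger increases formed a group of their own. Among the 4181 genes with a mean of at least 20 FPKM in Cxxc1-null meiosis II, the number of genes fell from 389 at a log2 change of 0.5 to 1.0 to 87 at 2.0 to 2.5, then rose again to 241 at 2.5 to 3.0 and 256 at 3.0 to 3.5, and dropped to 30 at 3.5 to 4.0. The bins from 2.5 to 3.5 held 13 of the 14 late spermatid markers. The position moved with the diplotene library used: without replicate 1 the group lay lower, with 301 genes at 2.0 to 2.5, and without replicate 2 it lay higher, with 247 genes at 3.5 to 4.0 and 137 at 4.0 to 4.5. In WT 176 genes lay at 3.5 to 4.0 and 231 at 4.0 to 4.5. The bins were chosen after the values were seen, and no difference of position was tested.

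**Figure D3:**
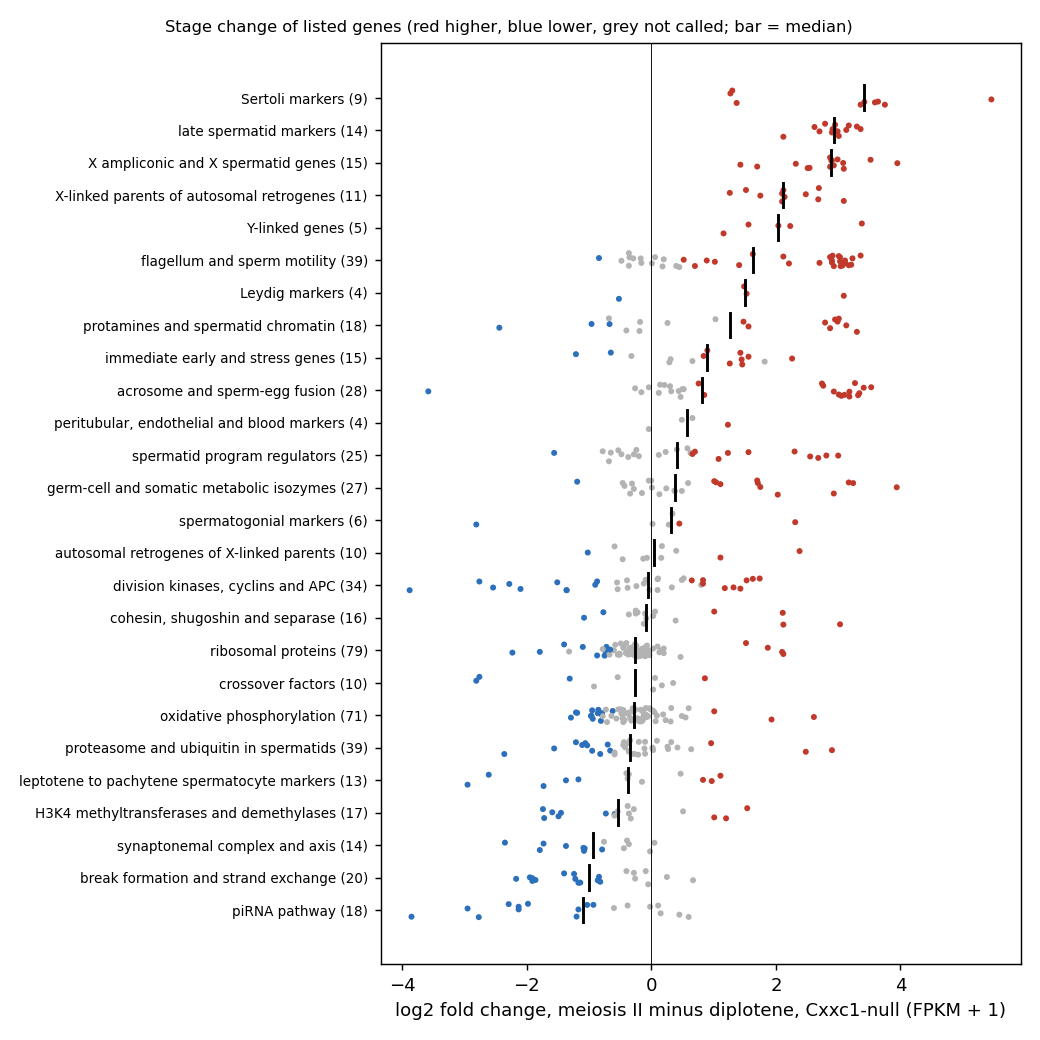
Log2 fold change between diplotene and meiosis II in Cxxc1-null cells for each gene of 26 lists, with the number of genes in brackets, red and blue for genes called higher and lower, grey for genes not called, and a black bar at the list's median. The median over all 11762 genes is -0.02; Sertoli markers have the highest list median at 3.42 and piRNA genes the lowest at -1.1, and the acrosome and flagellum lists split into a group near 0 and a group near 3.

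Most X-linked genes rose. Among genes at 1 FPKM or more in all 4 libraries, 91 of 105 X-linked genes were higher in meiosis II (86.7%) and 1 was lower, compared with 1471 higher (16.2%) and 1972 lower of 9059 autosomal genes. Their median log2 fold change was 2.89 on the X and -0.13 on autosomes. The full set held 363 X-linked genes, of which 341 were higher, but 173 of these genes had passed the threshold through meiosis II alone and so had to be high there. For the full set the medians were 2.19 on the X and -0.05 on 11306 autosomal genes. The median X-linked level was 0.494 and 1.08 FPKM in the 2 diplotene libraries and 6.55 and 7.66 FPKM in meiosis II, while the autosomal medians were 9.13 and 10.1, then 9.65 and 9.5 FPKM. These X-linked medians did not overlap between stages, and diplotene replicate 2 was again the nearer to meiosis II. Without it 340 X-linked genes were higher, with a median of 2.43, and without replicate 1 320 were, with a median of 1.85. Between autosomes the share higher ranged from 18.8% on chromosome 17 to 34.3% on chromosome 14.

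Both lists of X-linked genes, which are drawn from the X-linked genes above, rose as well. Among them Rbmx, G6pdx and Cypt14 passed the threshold through meiosis II alone, so their rise was fixed by admission. All 11 X-linked parents of autosomal retrogenes rose (median 2.12). Cul4b, a cullin gene, read 0.787 and 4.03 FPKM, then 18.9 and 31.7 FPKM (log2 fold change 3.09 ± 0.44, or 2.34 and 3.84 without diplotene replicate 1 and without replicate 2), and Uba1, the ubiquitin-activating enzyme gene, read 1.25 and 3.12, then 14.9 and 17.1 FPKM (2.48 ± 0.30). Rbmx, an RNA-binding protein gene, rose from 0.181 and 0.286 to 8.31 and 5.76 FPKM. The autosomal retrogenes that can supply such functions while the X is silent were listed too: of 10, 2 rose and 1 fell (median 0.05, and -0.06 with a common median over libraries). The difference between both lists was not tested. Cstf2, an X-linked cleavage factor gene, rose by 2.68, while its autosomal copy Cstf2t fell by 1.02, a call lost without diplotene replicate 1 (limma adjusted p = 0.055) or meiosis II replicate 2 (0.069). Reads of such near-identical copies can be misassigned, so their levels are uncertain.

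All 15 X-linked ampliconic and spermatid genes rose (median 2.89), 12 of them also without meiosis II replicate 2. Ssxb1 went from 1.08 and 2.93 to 37.9 and 49.3 FPKM (log2 fold change 3.95 ± 0.36, limma adjusted p = 5.2e-05), Cypt3 from 9.98 and 61.5 to 137 and 354 FPKM, and Slxl1, of a multicopy family whose copies share reads, from 1.95 and 8.87 to 34.2 and 59.4 FPKM. With 1 library left out the log2 change of Cypt3 ranged from 1.82 to 4.33 and that of Slxl1 from 2.22 to 3.96, lowest without diplotene replicate 1 and highest without replicate 2. Of 79 ribosomal protein genes 9 fell and 4 rose, and these 4 were the X-linked genes of the list: Rpl39, Rpl36a, Rps4x and Rpl10, the last named after its value was seen. Of the 4, Rpl36a alone was called without diplotene replicate 1 or without meiosis II replicate 1. The falls numbered 5 without diplotene replicate 2 or meiosis II replicate 1 and 14 without meiosis II replicate 2. Rpl39 rose from 2.08 and 2.59 to 15.4 and 11.3 FPKM, whereas the autosomal Rpl10a fell from 177 and 221 to 37.2 and 46.2 FPKM.

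Of 71 oxidative phosphorylation genes 13 fell and 3 rose, and 2 of these 3 were X-linked; 6 fell without meiosis II replicate 1. Ndufb11, of complex I, rose from 0.913 and 2.71 to 16.1 and 14.4 FPKM, and Cox7b, of complex IV, from 0.165 and 0.441 to 3.49 and 4.41 FPKM. Cox7b passed the threshold through meiosis II alone, so its rise was fixed by admission. The other X-linked gene of the list, Ndufa1, read 60.4 and 75.4, then 57.3 and 69.6 FPKM, and was not called. Atp5g3, of the ATP synthase, fell from 189 and 207 to 69.7 and 104 FPKM. The medians of the ribosomal and oxidative phosphorylation lists, -0.26 and -0.27, changed sign with 1 library: without meiosis II replicate 1 they were 0.10 and 0.01. Of 39 proteasome and ubiquitin genes 10 fell and 3 rose, 2 of which were the X-linked Ube2a and Uba1; 5 fell without diplotene replicate 1. The log2 change of Ube2a was 2.90, and 2.16 and 3.63 without diplotene replicate 1 and without replicate 2. Psma8, the testis-specific proteasome subunit gene, fell from 306 and 239 to 51.4 and 52.8 FPKM.

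The X-linked gene that fell was Lage3, from 6.39 and 4.8 to 2.63 and 1.44 FPKM (log2 fold change -1.14 ± 0.34, limma adjusted p = 0.021), a call lost without diplotene replicate 1 (0.12) or meiosis II replicate 2 (0.15). On the Y chromosome 5 of 6 genes were higher. Of these 5, Zfy1 and Usp9y passed the threshold through meiosis II alone, so their rise was fixed by admission. Eif2s3y, a translation initiation factor gene, rose from 4.72 and 7.06 to 68.1 and 70.8 FPKM (3.38 ± 0.24), and Usp9y from 0.1 and 0.143 to 2.83 and 1.86 FPKM. Zfy2 and Ube1y1 rose by 2.04 and 2.23. Tspy-ps read 0.553 and 6.49 FPKM, then 6.42 and 15.4 FPKM, and was not called (limma adjusted p = 0.051), but was called without diplotene replicate 2. Sly, Ssty1 and Ssty2 were listed at 0 in all 4 libraries.

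**Figure D4:**
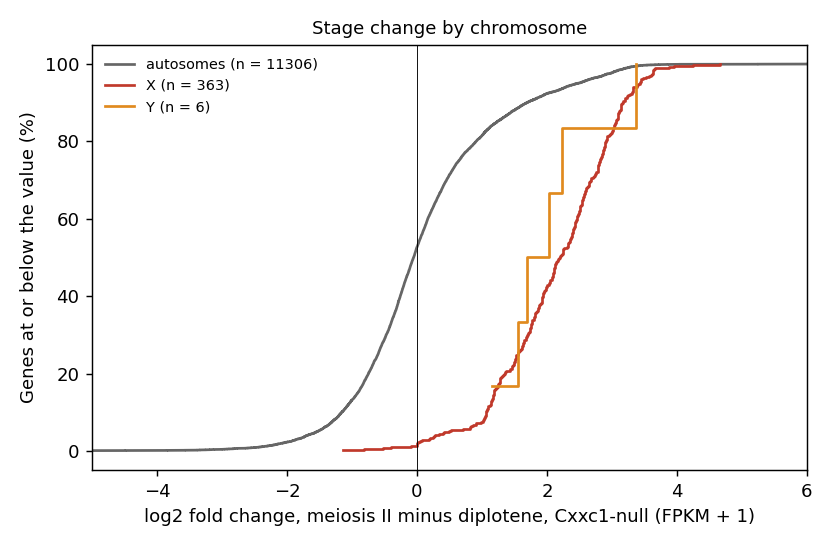
Cumulative share of genes by log2 fold change between diplotene and meiosis II in Cxxc1-null cells, for 11306 autosomal, 363 X-linked and 6 Y-linked genes. The X curve lies to the right of the autosomal curve, with medians of 2.19 and -0.05, and 173 of the X-linked genes entered through meiosis II alone.

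Among 17 genes of histone H3 lysine 4 methylation, 7 fell and 3 rose (median -0.54). Of the 3 that rose, Kdm1b and the X-linked Kdm5c passed the threshold through meiosis II alone, so their rise was fixed by admission. Besides Cxxc1, the lowered genes included the methyltransferase gene Wbp7, from 3.71 and 5.41 to 0.666 and 0.619 FPKM (log2 fold change -1.74 ± 0.28), its relative Mll2, from 3.69 and 3.62 to 0.588 and 0.252 FPKM, and Mll5, from 11 and 13.4 to 3.41 and 3.29 FPKM. Wbp7 and Mll2 were admitted through diplotene alone, so their fall was fixed. Dpy30, a subunit shared by these complexes, rose from 80.9 and 118 to 228 and 357 FPKM (1.54 ± 0.31, limma adjusted p = 0.0027). Ash2l, another shared subunit, read 188 and 140 FPKM, then 158 and 105 FPKM, and the demethylase gene Kdm1a read 23.0 and 32.0, then 32.8 and 46.2 FPKM; neither was called.

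Among markers of other germ cells, 5 of 13 spermatocyte markers fell and 3 rose, and of 6 spermatogonial markers 2 rose and 1 fell (1 and 1 without either diplotene library). Without diplotene replicate 1, 2 of the 13 fell and 2 rose. Pou5f2, a POU transcription factor gene, fell from 133 and 112 to 20.8 and 17.4 FPKM. Id4, an inhibitor of DNA binding, fell from 22.6 and 25 to 2.01 and 3.13 FPKM, and the X-linked Rhox13 rose from 0.125 and 0.736 to 6.96 and 5.02 FPKM. Rhox13 and Etv5, the 2 spermatogonial markers that rose, passed the threshold through meiosis II alone, so their rise was fixed by admission. Summed levels of the 16 spermatogonial markers were 34.8 and 42.0 FPKM in diplotene and 26.4 and 30.4 FPKM in meiosis II. The lower sum in meiosis II follows Id4, which made up most of both diplotene sums. Of the 6 markers among the genes, 5 had a positive log2 difference.

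Most of the highest transcripts were not called. Cox8c, a testis isoform of a cytochrome oxidase subunit, read 5696 and 6287 FPKM, then 3664 and 5380 FPKM. Fabp9, a fatty acid binding protein gene, read 5935 and 7924 FPKM, then 5165 and 8937 FPKM. Spink2, a protease inhibitor gene of the acrosome, read 2952 and 3288, then 2785 and 4067 FPKM. Of the 12 highest genes in diplotene only Rsph1, a radial spoke gene, was called, from 3141 and 3258 to 1818 and 2049 FPKM (log2 change -0.73 ± 0.22, limma adjusted p = 0.02), and it was not called without either diplotene library or without meiosis II replicate 1 (0.087 to 0.1). The microRNA gene Mir3064 was also among them and differed between its diplotene libraries, at 7651 and 2042 FPKM. Above a mean of 100 FPKM 202 of 1478 genes were higher and 182 lower, against 800 and 274 of 1951 genes under 2 FPKM. The shares over all tested genes were 25.3% higher and 18.8% lower. Genes admitted through 1 stage alone, whose direction was fixed, were not separated from the others in these counts.

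Promoter letters were matched for 9363 of the 11762 genes (79.6%), 1124 of them through an older symbol. Of 13 sets examined, 7 had letters for under 80% of their genes, so the check is void for them and no value is given: all 11762 genes, all genes higher or lower with and without the sex chromosomes, and autosomal genes raised under 4-fold or lowered at least 4-fold. CpG, the cyclic AMP response element and its core were all the features looked at. The sets were formed after the expression values were seen, and no test was run. In the others, autosomal genes that rose at least 4-fold had a median of 4 CpG in the 250 bases before the start (693 of 859 genes matched), and 49.9% held 3 or fewer. The median was 17 for autosomal genes that fell under 4-fold (1708 of 2130, 5.27% with 3 or fewer) and 16 for autosomal genes not called (5015 of 6231, 8.77%). X-linked genes that rose had a median of 7 (288 of 341, 31.9%), and all 27025 promoters of the table a median of 6 (38.1%).

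The cyclic AMP response element TGACGTCA, the site of CREM-family factors and its own reverse complement, was searched in the same windows. It was present in 2.89% of the autosomal promoters of genes raised at least 4-fold, 2.58% of those lowered under 4-fold, 3.19% of those not called and 1.39% of the raised X-linked promoters, against 1.62% of all promoters. Its 5-letter core TGACG, on either strand and overlapping the full element, was in 16.5%, 28.2%, 28.4% and 22.9% of these sets in the same order and in 17.9% of all promoters. The element and its core each hold a CpG, so these shares are not independent of the CpG counts above. None of the 5 promoters printed above holds the full element.

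The WT change over the same stages had much in common with it. Of the 11762 genes, 3063 were higher and 2362 lower in WT meiosis II than in WT diplotene (26.1% and 18.9% of all tested). With a common median over libraries these counts were 2514 and 3706, against 2823 and 2810 in Cxxc1-null cells, and after quantile normalization the WT counts were 2541 and 3641. The share of WT calls that were higher thus moved from 56.5% to 40.4% and 41.1%. The stage changes of the 2 genotypes, which share no library, had the same sign in 10163 genes and correlated at r = 0.91 across the 11762 genes, which are not independent replicates. The median absolute difference between them was 0.3. Of the 3073 genes higher in Cxxc1-null cells 3029 had a positive change in WT, and of the 2401 lower 2341 had a negative one.

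The difference between the genotypes' stage changes passed the test in 5 of the 11762 genes (0.054% of all tested), and 951 genes had an unadjusted p under 0.05 in limma (8.29% of all tested). All 5 were listed at 0 in 10 of the 12 libraries, so each was admitted only through the 2 libraries where it was read, and a difference was fixed by that admission. Mir135b read 43.8 and 101 FPKM and Defb5, a beta-defensin gene, 2.71 and 3.11 FPKM in Cxxc1-null meiosis II alone. Mir487b read 189 and 101 FPKM, Mir5113 85.2 and 73.1 FPKM and the small Cajal body RNA gene Scarna8 17.7 and 18.9 FPKM in Cxxc1-null diplotene alone. The libraries were primed on poly(A) tails, so these values are no measure of mature microRNAs. Their mature sequences, from RefSeq, are shown because 3 of the 5 genes are microRNA genes, with the seed (bases 2 to 8) in capitals. The 3 seeds shown differ from each other, and other arms were not examined.
mmu-miR-135b-3p: aUGUAGGGcuaaaagccauggg
mmu-miR-487b-5p: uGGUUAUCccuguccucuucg
mmu-miR-5113: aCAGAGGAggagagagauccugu

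**Figure D5:**
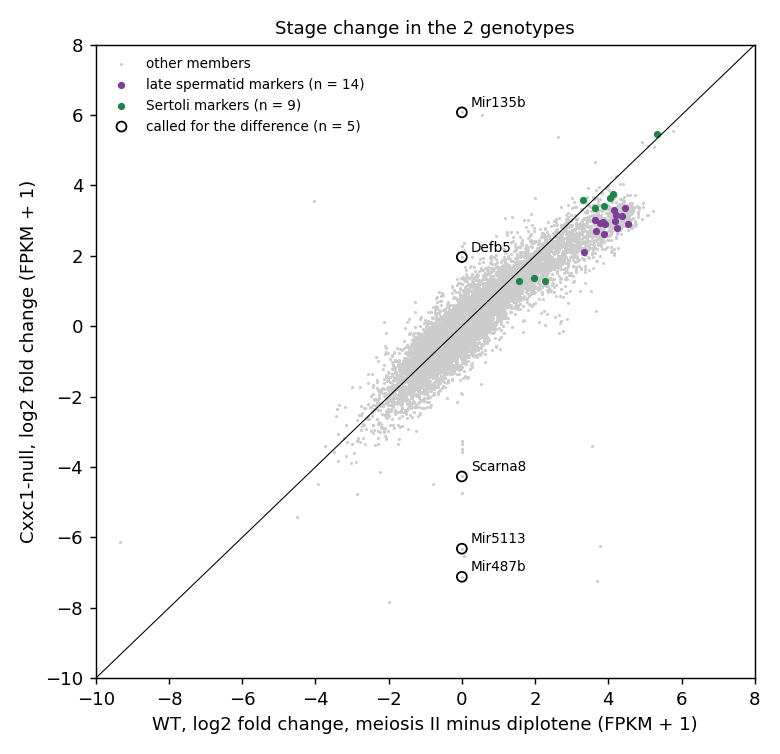
Log2 fold change between diplotene and meiosis II in WT (horizontal axis) and Cxxc1-null cells (vertical axis) for the 11762 genes, with the line of equal change. The 14 late spermatid markers lie below the line, with medians of 4.02 in WT and 2.94 in Cxxc1-null cells, the latter 4.23 without diplotene replicate 2, 7 of the 9 Sertoli markers lie below it as well, and the 5 circled genes are those whose difference passed the test, all at 0 in both stages of WT.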

How the data were processed

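RNA of 12 sorted-cell libraries was measured as FPKM. The authors deposited 1 table of FPKM for 23235 genes; per the submitters' processing notes TopHat2 2.1.1, Cufflinks 2.2.1 and mm9 were used, with roles not given in the sources used here. Whole reads could not be recovered from low values, so no count test was run and depth is unknown. The 8 chromatin libraries were not analysed here.

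Values were taken as log2(FPKM + 1), which understates changes of low genes. The 12956 genes at 1 FPKM or more in at least 2 of the 12 libraries were fitted in limma 3.58.1 (R 4.3.3, trended variance) with a mean per group and 6 residual degrees of freedom, and p-values were adjusted by Benjamini-Hochberg over all of them. The fit was tested on simulated data. Contrasts were meiosis II minus diplotene in each genotype and their difference. Members and lists were chosen with earlier results of these data known.

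Named genes were Cxxc1, the 12 largest changes each way outside uncharacterised and short RNA genes, the 3 largest each way among uncharacterised genes, up to 4 called and 2 uncalled per list, genes called for the difference, and the 12 highest per stage; a selection is printed. Chromosomes and promoters came from RefSeq tables of GRCm38.p6. Alternatives were another pseudocount, other filters and scalings, a separate fit, a replicate block and leaving out each library. Some genes are not reported here.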

Additional observations from a re-analysis of the deposited data

Results flagged for a closer look

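The stage change differed between Cxxc1-null and WT cells in 5 genes by limma's test over all genes, but each was listed at 0 in 10 of 12 libraries and was admitted only through the 2 libraries that read it, so the outcome was fixed by admission and no p is given. The log2 difference was 6.08 for Mir135b and 1.97 for Defb5, both read in Cxxc1-null meiosis II alone. It was -7.12 for Mir487b, -6.32 for Mir5113 and -4.27 for Scarna8, read in Cxxc1-null diplotene alone. Of the 5 genes, 4 are short RNA genes, a class of 48 among the 11762 genes.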

How the results depend on the processing

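Depth is unknown, and each group has 2 libraries, so a lone library is assumed to vary like the other groups. Without 1 library the Cxxc1-null stage change called 3893 to 4558 genes, 2355 to 2719 higher and 1520 to 1853 lower, against 5474, 3073 and 2401 with all. The WT change then called 2502 to 2782 genes higher and 1482 to 1745 lower, against 2362 lower with all, 3706 with a common median and 3641 after quantile normalization. The difference between genotypes called 5 to 7 genes without 1 library, 13 with no filter on low values and 1 with short RNA genes left out. With the replicate number as a block (replicate block) the Cxxc1-null change called 6114 genes and the difference 7; same-numbered libraries of the stages compared deviated together at r = 0.42 in Cxxc1-null and 0.314 in WT cells, and at 0.116 to 0.294 for the other stage pairs. Each comparison has 2 numbered pairs and the labels name no shared source, so whether the numbers pair the samples is not known. In WT pachytene, diplotene and meiosis II, Rn45s read 4339, 5973 and 12226 FPKM in replicate 1 and 0 in each replicate 2. All Cxxc1-null libraries read it, and the source of this split was not tested. Between 70.4% (without diplotene replicate 1) and 99.6% (replicate block) of Cxxc1-null calls were shared across alternatives, 0 with opposite sign. Of 121 called named genes 102 were called under all alternatives that tested them. Medians of 4 lists changed sign: division machinery, autosomal retrogenes, ribosomal proteins and oxidative phosphorylation.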
